A study of Mus musculus with 27 samples.

Results

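The Toll-like receptor genes *Tlr1* to *Tlr9* and *Tlr11* were examined in 3 cell types of the inflamed mouse colon, namely monocytes, macrophages and cDC1s. A probe belonged to the set where the gene symbol given for it in the deposited intensity table was one of these names, which gave 10 genes and 14 probes of the 30869 symbols and 45281 probes on the array. *Tlr4* had 3 probes, *Tlr6* and *Tlr9* had 2 each, and the remaining 7 genes had 1. Where a gene had several probes, its value is that of the probe that was brightest on average over the 25 colon arrays, called its main probe, and the others are given where they differ. The RefSeq accession listed for each of the 14 probes belongs to a gene of the same name.

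The study asked what *Mbd2*, a protein that binds methylated CG dinucleotides and is linked to repressed chromatin, does in colitis. *Mbd2*-/- mice, which lack the gene in all cells, and their co-housed littermate WT controls, age and sex matched and on a C57BL/6 background, all received 2% DSS (dextran sodium sulphate, a detergent-like polymer that injures the colon lining) in their drinking water, so no group was without colitis. Monocytes were sorted as CD45+Ly6G-Siglec-F-CD11b+Ly6C+ cells (5 WT and 5 *Mbd2*-/- arrays), macrophages as the CD11b+Ly6C-MHC-II+F4/80+ cells of the same gate (5 and 5), and cDC1s, the cross-presenting dendritic cells, as CD11b-CD11c+CD103+ cells (2 and 3), on Illumina mouse arrays. By the labels each array was made from the cells of 1 to 5 mice, so a value can be the mean of a pool and differences between single mice are partly averaged out. The study's methods give a wider range of mice per replicate than the labels do.

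Toll-like receptors are sensors of microbial molecules. Those that recognise lipoproteins, lipopolysaccharide and flagellin sit at the cell surface, whereas those that recognise nucleic acids, and *Tlr11*, a sensor of a parasite protein that is active in mice and not in humans, work inside endosomes. Most signal through the adaptor MyD88 to NF-κB and interferon regulatory factors, *Tlr3* signals through the adaptor TRIF (gene *Ticam1*), and *Tlr4* uses both. In the colon these receptors face a dense microbiota, and dendritic cell subsets are known to differ in which of them they carry.

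Values below are log2 intensities after background correction and quantile normalization of the 25 arrays. A probe was detected where its intensity exceeded nearly all negative control probes (detection p under 0.05). Mean intensity per array was 172 to 353 and the number of detected probes 16024 to 18608. The *Mbd2* probe was not detected on any of the 25 arrays (4.18 to 4.63 on 12 WT arrays, 4.20 to 4.49 on 13 *Mbd2*-/- arrays) and the genotype labels could not be checked with it. The 8 cDC1 markers averaged 9.06 to 9.43 on the cDC1 arrays and 5.98 to 6.65 on the others, and the 8 macrophage markers averaged 11.50 to 11.89 on macrophage arrays and 9.69 to 10.09 on monocyte arrays. The 6 monocyte markers averaged 9.90 to 10.45 on monocyte arrays and 8.49 to 9.20 on macrophage arrays, although the *Ccr2* probe was detected on only 1 of 10 monocyte arrays. Epithelial markers averaged 7.07 to 8.92 in all groups, and T cell markers reached 8.57 on cDC1 arrays against at most 6.75 on the others. WT macrophage array 12 and *Mbd2*-/- macrophage array 20 stood apart from their groups (mean correlation with the other arrays of the group 0.958 and 0.959, against at least 0.971 for the other macrophage arrays). The WT cDC1 arrays, 23 and 26, correlated with each other at 0.961. T cell markers averaged 8.56 on array 23 and 6.65 on array 26, and mast cell markers 6.20 and 4.55. On *Mbd2*-/- cDC1 arrays these lists ranged from 6.03 to 8.57 and from 4.49 to 6.28.

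cDC1s differed from monocytes and macrophages in most of these receptors. In cDC1s *Tlr2*, *Tlr6*, *Tlr7*, *Tlr1*, *Tlr5* and *Tlr4* were lower than in both other cell types, from at least 5.26-fold for *Tlr5* to 26.2-fold for *Tlr7*, both against macrophages. *Tlr3* and *Tlr11* were higher, from 3.40-fold for *Tlr3* against macrophages to at least 13.9-fold for *Tlr11* against monocytes. These folds are those of the main background correction and normalization, and some other settings gave smaller ones for *Tlr3*, *Tlr5*, *Tlr7* and *Tlr11*. Of 10 receptor genes tested against monocytes, 8 were called, which asks for an adjusted p under 0.05 in limma and a log2 difference of 1 or more either way, namely 2 higher and 6 lower in cDC1s. Over all 12897 genes tested in that comparison 19% were called, 9.36% higher and 9.61% lower. Of 9 tested against macrophages 8 were called, the same 2 higher and 6 lower, where 18.1% of all 13267 genes were called (8.89% higher, 9.29% lower). For these 8 genes the cDC1 arrays overlapped neither the monocyte nor the macrophage arrays, which held for 29% and 24.1% of all genes in the respective comparisons. The median difference over the receptors was -2.55 against monocytes and -2.66 against macrophages, against -0.01 over all probes tested in each comparison. The 3 cell type comparisons share arrays with each other, and in bulk sorted cells a smaller share of expressing cells and less RNA per cell cannot be told apart.

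**Figure D1:**
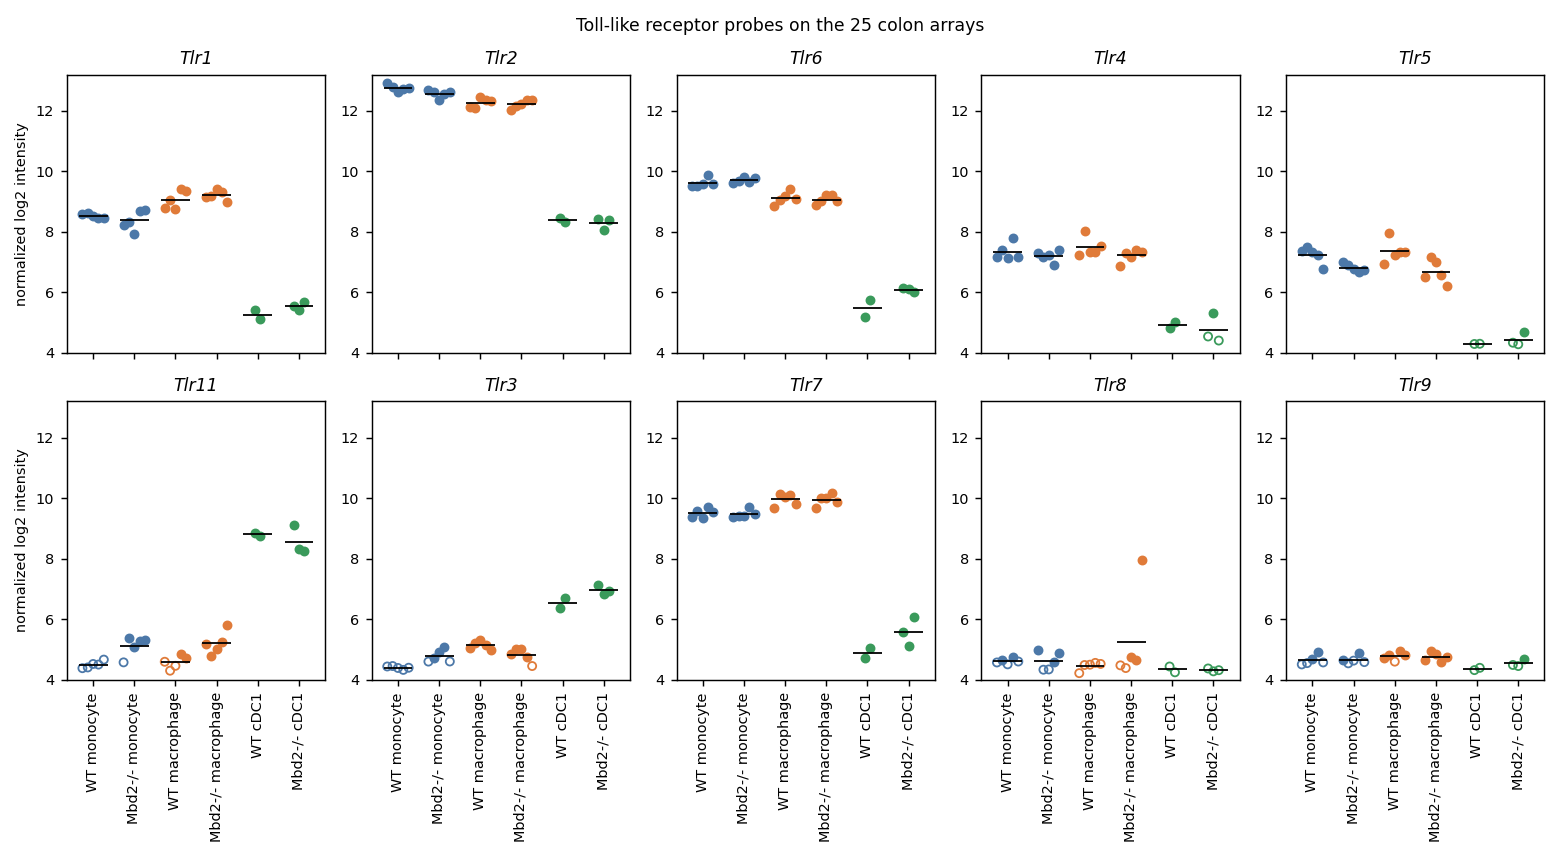
Normalized log2 intensity (vertical axis, the same scale in each panel) of the main probe of each receptor gene on the 25 colon arrays, by cell type and genotype. Each circle is 1 array, filled where the probe was detected and open where it was not, and bars are group means (5, 5, 5, 5, 2 and 3 arrays). The cDC1 arrays lie below the rest for *Tlr1*, *Tlr2*, *Tlr4*, *Tlr5*, *Tlr6* and *Tlr7* and above the rest for *Tlr3* and *Tlr11*, while *Tlr8* and *Tlr9* stay near 4.5 apart from 1 *Mbd2*-/- macrophage array at 7.95 for *Tlr8*.

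Among the surface receptors, *Tlr2*, which recognises bacterial lipoproteins as a partner of *Tlr1* or *Tlr6*, read 12.37 to 12.92 on 10 monocyte arrays (median 12.66) and 12.02 to 12.46 on 10 macrophage arrays (median 12.29). On the cDC1 arrays it read 8.46 and 8.31 in WT and 8.43, 8.07 and 8.40 in *Mbd2*-/- cells. It was detected on all 25 arrays, and every cDC1 array was below every other array by more than 3 log2 units. *Tlr2* was 20.0-fold lower in cDC1s than in monocytes (log2 difference -4.32, standard error 0.09, limma adjusted p = 1.65e-20) and 15.0-fold lower than in macrophages (-3.91, adjusted p = 1.11e-19). Macrophages were below monocytes by a smaller step of -0.42 (95% interval -0.56 to -0.27, adjusted p = 5.54e-05), with overlapping arrays.

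*Tlr1*, the partner of *Tlr2* for triacylated lipoproteins, read 7.93 to 8.71 in monocytes (median 8.50) and 8.75 to 9.41 in macrophages (median 9.18). In cDC1s it read 5.41 and 5.11 on WT arrays and 5.56, 5.42 and 5.67 on *Mbd2*-/- arrays. The 3 cell types did not overlap, in the order macrophages, monocytes, cDC1s. *Tlr1* was 8.28-fold lower in cDC1s than in monocytes (-3.05, standard error 0.13, limma adjusted p = 2.11e-15) and 13.3-fold lower than in macrophages (-3.74, adjusted p = 6.26e-17). It was 1.61-fold higher in macrophages than in monocytes (0.69, 95% interval 0.47 to 0.90, adjusted p = 1.26e-05).

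*Tlr6*, the partner for diacylated lipoproteins, ran in the other direction between monocytes and macrophages. It read 9.50 to 9.88 in monocytes (median 9.62) and 8.84 to 9.42 in macrophages (median 9.07), with no overlap, and macrophages were 1.48-fold lower (-0.57, 95% interval -0.74 to -0.40, adjusted p = 7.41e-06). In cDC1s *Tlr6* read 5.17 and 5.76 on WT arrays and 6.15, 6.10 and 6.02 on *Mbd2*-/- arrays. These were 14.7-fold below monocytes (-3.88, standard error 0.10, limma adjusted p = 6.44e-19) and 9.93-fold below macrophages (-3.31, adjusted p = 1.02e-17). The second *Tlr6* probe was dim, was detected on 10 of 10 monocyte, 9 of 10 macrophage and 0 of 5 cDC1 arrays, and was therefore only bounded, at least 1.72-fold lower in cDC1s than in monocytes (fitted adjusted p = 8.09e-05) and at least 1.39-fold lower than in macrophages (0.00294). Here and below such a bound sets the mean of the brighter group against the dimmer group. Each array of the dimmer group enters at the higher of its own value and the lowest signal among detected probes. The same is done where fewer than 0.5 of the arrays of the dimmer group detected the probe. A bound carries no interval, and undetected arrays of the brighter group enter it at their own value. It holds only for the main background correction and normalization. Over the other settings the log2 difference of cDC1s from monocytes shrank to 2.27 for *Tlr11*, -1.19 for *Tlr5* and 0.92 for *Tlr3*, less than the bounds given for these genes.

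*Tlr4*, the receptor for lipopolysaccharide, read 6.89 to 7.79 in monocytes (median 7.21) and 6.86 to 8.03 in macrophages (median 7.33). In cDC1s it read 4.81 and 5.01 on the WT arrays, both detected, and 4.54, 5.33 and 4.41 on the *Mbd2*-/- arrays, of which 1 was detected. Monocytes and macrophages overlapped throughout on this probe, and the cDC1 arrays lay below both. *Tlr4* was 5.39-fold lower in cDC1s than in monocytes (-2.43, standard error 0.16, limma adjusted p = 4.10e-12) and 5.72-fold lower than in macrophages (-2.52, adjusted p = 2.36e-12).

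The probes of *Tlr4* differed in what they showed between macrophages and monocytes. The main probe gave a difference of 0.09 (95% interval -0.17 to 0.35, limma adjusted p = 0.630). The second probe read 7.02 to 7.63 in monocytes (median 7.42) and 6.03 to 6.90 in macrophages (median 6.71), without overlap, and was 1.77-fold lower in macrophages (-0.82, adjusted p = 3.99e-06). The remaining probe was not detected on any of the 25 arrays. Both detected probes gave the lower value in cDC1s, the second at -2.64 against monocytes (adjusted p = 1.83e-13) and -1.81 against macrophages (adjusted p = 1.75e-10). The array table does not say which transcript each probe reads, and whether the probes read different transcripts was not tested.

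*Tlr5*, the flagellin receptor, read 6.66 to 7.50 in monocytes (median 6.94) and 6.21 to 7.96 in macrophages (median 7.07), and these 2 cell types differed by -0.01 (95% interval -0.27 to 0.26, limma adjusted p = 0.978). In cDC1s it read 4.29 and 4.30 on WT arrays, neither detected, and 4.33, 4.28 and 4.68 on *Mbd2*-/- arrays, of which only the last was detected. With 1 of 5 cDC1 arrays detected the fold is a bound, and *Tlr5* was at least 5.29-fold lower in cDC1s than in monocytes (limma adjusted p = 1.05e-12) and at least 5.26-fold lower than in macrophages (adjusted p = 1.18e-12).

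Among the endosomal receptors, *Tlr11*, which in mice recognises profilin of protozoan parasites, showed the largest rise in cDC1s among the 10 genes. On cDC1 arrays it read 8.86 and 8.75 in WT and 9.11, 8.31 and 8.26 in *Mbd2*-/- cells. In monocytes it read 4.38 to 5.39 (median 4.62, detected on 4 of 10 arrays) and in macrophages 4.29 to 5.82 (median 4.81, 7 of 10). All cDC1 arrays were thus more than 2 log2 units above every monocyte and macrophage array. *Tlr11* was at least 13.9-fold higher in cDC1s than in monocytes (fitted difference 3.87, limma adjusted p = 1.70e-15) and 13.8-fold higher than in macrophages (3.79, standard error 0.16, adjusted p = 2.67e-15), of which 2 of 5 WT arrays were detected.

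*Tlr3*, the receptor for double-stranded RNA, read 6.35 and 6.69 on WT and 7.13, 6.84 and 6.92 on *Mbd2*-/- cDC1 arrays. In monocytes it read 4.32 to 5.06 (median 4.52) and was detected on 3 of 10 arrays, and in macrophages 4.45 to 5.32 (median 5.01), detected on 9 of 10. *Tlr3* was at least 4.08-fold higher in cDC1s than in monocytes (fitted difference 2.16, limma adjusted p = 1.97e-14) and 3.40-fold higher than in macrophages (1.77, adjusted p = 7.34e-13). The macrophage level was 1.31-fold above that of monocytes (0.39, adjusted p = 5.89e-04). This step was 0.74 between WT arrays alone (limma adjusted p = 5.1e-05), where 0 of 5 monocyte arrays were detected. Between *Mbd2*-/- arrays alone it was 0.04 (adjusted p = 0.857). Whether the step differs between the genotypes was not tested.

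*Tlr7*, a receptor for single-stranded RNA, read 9.33 to 9.72 in monocytes (median 9.44), 9.66 to 10.15 in macrophages (median 10.01), 4.72 and 5.06 in WT cDC1s and 5.58, 5.13 and 6.06 in *Mbd2*-/- cDC1s. It was detected on all 25 arrays, with the cDC1 arrays more than 3 log2 units below the rest. *Tlr7* was 19.1-fold lower in cDC1s than in monocytes (-4.26, standard error 0.13, limma adjusted p = 4.78e-18) and 26.2-fold lower than in macrophages (-4.71, adjusted p = 9.23e-19), and macrophages were 1.37-fold above monocytes (0.46, adjusted p = 9.86e-04) with overlapping arrays. On cDC1 arrays its deposited intensity was only 1.11 to 1.28 times the mean of the negative controls. Over the other settings the cDC1 difference ran from -4.62 to -2.83 against monocytes and from -5.07 to -3.25 against macrophages.

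*Tlr8*, the other receptor for single-stranded RNA, and *Tlr9*, the receptor for unmethylated CpG DNA, were near background in every group. *Tlr8* was detected on 8 of 25 arrays and on 0 of 5 cDC1 arrays. It read 4.33 to 4.98 in monocytes, 4.24 to 4.43 in cDC1s and 4.21 to 4.74 on 9 of 10 macrophage arrays. The remaining macrophage array, *Mbd2*-/- array 20, read 7.95, and its deposited intensity of 228 compares with 79.4 to 107 on the other 24 arrays. *Tlr8* differed between cDC1s and monocytes by -0.29 (95% interval -1.06 to 0.47, limma adjusted p = 0.531).

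The main *Tlr9* probe read 4.50 to 4.92 in monocytes (detected on 4 of 10 arrays), 4.59 to 4.96 in macrophages (9 of 10) and 4.31 to 4.67 in cDC1s (1 of 5). The ranges overlapped throughout. *Tlr9* was 1.25-fold lower in cDC1s than in macrophages (-0.32, 95% interval -0.50 to -0.14, limma adjusted p = 0.00334), which is under the minimum difference for a call, and the difference from monocytes was -0.21 (-0.39 to -0.03, adjusted p = 0.0506). Its second probe was not detected on any of the 25 arrays.

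Between macrophages and monocytes no receptor gene was called, where 5.39% of all 12136 genes were. At an adjusted p under 0.05 alone 6 of 9 receptor genes passed by limma, against 42.5% of all genes. *Tlr1*, *Tlr3* and *Tlr7* were higher in macrophages, and *Tlr2*, *Tlr6* and, by its second probe, *Tlr4* were lower. The second *Tlr6* probe, at -0.31, did not pass (limma adjusted p = 0.120). The arrays did not overlap for *Tlr1*, *Tlr6* and the second *Tlr4* probe, 3 of 9 genes against 8.94% of all genes. *Tlr11* differed by 0.09 (adjusted p = 0.649) and *Tlr9* by 0.12 (adjusted p = 0.208). With arrays scaled to 1 median in place of quantile normalization *Tlr7* no longer passed (0.40, adjusted p = 0.0980).

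**Figure D2:**
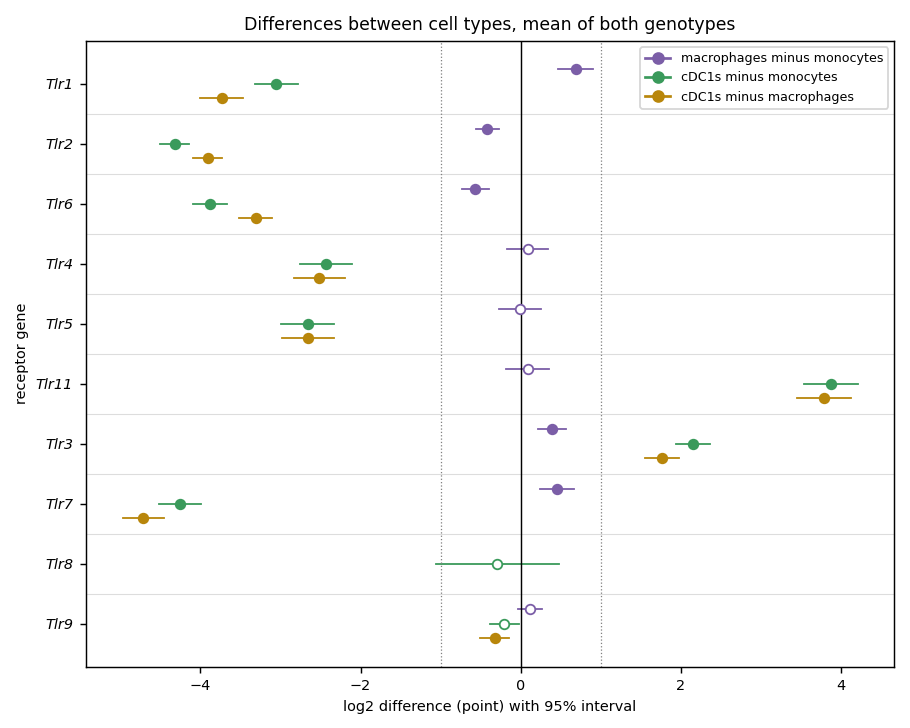
Log2 difference between cell types (horizontal axis, mean of both genotypes) for the main probe of each receptor gene, with 95% intervals from the limma fit. Filled points have an adjusted p under 0.05, open points do not, dotted lines mark a difference of 1 either way, and a missing point was not tested. For cDC1s, *Tlr11* (3.87 and 3.79) and *Tlr3* (2.16 and 1.77) stand to the right of 0 and 6 receptors between -4.71 and -2.43 stand to the left, whereas macrophages and monocytes differ by less than 1.

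Stretches upstream of 4 of these genes are shown because they belong to the receptors called higher in cDC1s than in both other cell types (*Tlr11*, *Tlr3*) and to a pair of those called lower (*Tlr2*, *Tlr6*), and because *Mbd2* binds methylated CG. They are the 250 bases before the transcription start in RefSeq (GRCm38.p6), written 5′ to 3′ on the strand of the gene, with capitals at each CG and at each match to GAAANNGAAA, the core of an element bound by interferon regulatory factors, searched on both strands.
*Tlr11* (chr14:50357664-50357913, + strand): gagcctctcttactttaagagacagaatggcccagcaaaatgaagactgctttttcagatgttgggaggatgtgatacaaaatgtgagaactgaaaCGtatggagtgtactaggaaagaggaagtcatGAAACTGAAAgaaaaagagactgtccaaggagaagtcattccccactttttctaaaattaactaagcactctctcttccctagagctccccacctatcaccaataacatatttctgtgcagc
*Tlr3* (chr8:45410381-45410630, - strand): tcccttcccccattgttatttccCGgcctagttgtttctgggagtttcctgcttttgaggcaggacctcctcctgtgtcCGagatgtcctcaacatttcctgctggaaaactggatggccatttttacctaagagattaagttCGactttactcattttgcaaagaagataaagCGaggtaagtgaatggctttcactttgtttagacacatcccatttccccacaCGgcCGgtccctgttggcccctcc
*Tlr2* (chr3:83841609-83841858, - strand): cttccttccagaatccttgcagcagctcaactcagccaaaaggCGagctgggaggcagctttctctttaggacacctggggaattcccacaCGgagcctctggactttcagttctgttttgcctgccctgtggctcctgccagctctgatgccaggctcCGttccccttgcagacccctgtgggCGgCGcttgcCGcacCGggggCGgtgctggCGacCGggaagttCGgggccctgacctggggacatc
*Tlr6* (chr5:64959167-64959416, - strand): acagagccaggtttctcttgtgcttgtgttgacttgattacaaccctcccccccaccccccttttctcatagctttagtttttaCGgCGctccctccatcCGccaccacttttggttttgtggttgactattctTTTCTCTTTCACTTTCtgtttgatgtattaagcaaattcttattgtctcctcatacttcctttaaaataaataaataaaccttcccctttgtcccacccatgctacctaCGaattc

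The *Tlr11* stretch held 1 CG, *Tlr3* 6, *Tlr6* 4 and *Tlr2* 11, against a median of 6 over 32851 promoters of this length. As many CG or more were found in 92.1% of promoters for *Tlr11*, 50.4% for *Tlr3*, 62.2% for *Tlr6* and 35.6% for *Tlr2*. The *Tlr6* stretch shown is that of 1 of its 2 starts, and the stretch before the other start held 6 CG (50.4%). GAAANNGAAA was found upstream of *Tlr11*, in the reading direction of the gene, and upstream of 1 of the 2 starts of *Tlr6*, as overlapping matches on the opposite strand, and 2.98% of all promoters hold it. The related GGAANNGAAA, held by 2.3% of all promoters, was in none of the 10 promoters listed for 8 of the receptor genes. *Tlr4* and *Tlr7* had none listed. Methylation of these stretches was not analysed here, and a match of letters is not a bound site.

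Other genes of the pathway were read from 8 lists with 58 genes. cDC1s had 10 genes higher and 31 lower than monocytes at an adjusted p under 0.05 of 55 tested, against 29.3% and 28.1% of all genes, and 9 higher and 27 lower than macrophages of 56 tested (28.9% and 28.6% of all genes). Among the co-receptors that bring ligands to the surface receptors, all 4 genes tested were lower in cDC1s than in monocytes and 3 of 4 were lower than in macrophages. *Cd14*, which hands lipopolysaccharide to *Tlr4*, read 13.36 to 13.81 in monocytes and macrophages and 10.04, 10.27, 10.68, 10.14 and 10.09 on the 5 cDC1 arrays. Its log2 difference was -3.42 against monocytes (limma adjusted p = 4.91e-19) and -3.25 against macrophages (1.21e-18), and values for the genes below are given in this order. *Ly96*, the MD-2 subunit that binds lipopolysaccharide beside *Tlr4*, was lower, at -2.29 (4.98e-14) and -2.45 (1.32e-14), as was *Ly86*, the partner of the related receptor Cd180, at -1.05 and -1.51. *Lbp*, a lipopolysaccharide carrier, differed by -1.15 from monocytes, a call that fell under the minimum difference without *Mbd2*-/- cDC1 array 30 (-0.93) and without background correction (-0.50), and by -0.51 from macrophages, which did not pass (0.0927).

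The adaptors of the cytosol were lower in cDC1s than in monocytes in 5 of 5 tested genes and lower than in macrophages in 2 of 5. *Ticam2*, the bridging adaptor between *Tlr4* and TRIF, was the one called, at -2.65 and -2.76. *Myd88* was lower against monocytes, at -0.58 (limma adjusted p = 1.03e-07), with 0.09 against macrophages (0.249). *Ticam1* showed -0.76 (0.00585) and -0.14 (0.632), and the first did not pass without WT cDC1 array 23 (-0.50, 0.106). Macrophages were themselves below monocytes in *Myd88*, at -0.67 (8.09e-10), and in *Ticam1*, at -0.62 (0.00754). *Unc93b1*, the chaperone that carries the nucleic acid receptors to endosomes, was lower in cDC1s, at -0.36 (0.00280, and -0.25 with 0.0567 without array 23) and -0.64 (3.93e-06), and higher in macrophages than in monocytes, at 0.29 (0.00407). *Lgmn*, an endosomal protease that can cleave receptors, was lower in cDC1s, at -2.18 and -3.01, and *Ctss*, a cathepsin, was called against macrophages at -1.11.

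Among kinases and ubiquitin ligases, 6 of 14 were lower and 3 higher in cDC1s than in monocytes, with *Ikbke* at -2.70, *Irak2* at -2.10, *Tbk1* at -1.63, *Traf3* at -1.57 and *Chuk* at 1.10 called. The same 5 genes were called against macrophages, at -2.31, -1.45, -1.31, -1.64 and 1.23. Negative regulators moved both ways. *Irak3*, which blocks signalling of the MyD88 complex, was lower, at -4.04 (limma adjusted p = 1.12e-18) and -3.57 (9.87e-18), as was *Tnfaip3*, a ubiquitin-editing enzyme, at -0.99 (4.77e-07) and -1.31 (5.97e-09). *Tnip1*, a binding partner of the latter, was lower at -2.15 and -1.36 and *Nfkbia*, an inhibitor of NF-κB, at -1.50 and -1.13, whereas *Sigirr*, an inhibitory member of the receptor superfamily, was higher at 1.89 and 2.13. Among the transcription factors *Irf7* was called lower against monocytes at -1.80 and *Irf5* higher at 1.03 against macrophages, and among folding factors *Cnpy3* was called higher at 1.00 against macrophages. *Irf5* fell under the minimum without WT cDC1 array 26 (0.93) and under median scaling (0.47), and *Cnpy3* did so in 8 of 15 fits that left out 1 array (down to 0.80, without array 23) and without background correction (0.41). Calls of *Ly86* and *Chuk* against monocytes and of *Ctss* against macrophages likewise fell to -0.98 without cDC1 array 28, 0.94 without array 26 and -0.95 without array 26.

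Of the family members outside the set, *Tlr12*, which pairs with *Tlr11*, was higher in cDC1s than in monocytes by 2.52 and higher in macrophages than in monocytes by 1.93. Its cDC1 arrays read 7.00 and 8.00 in WT and 8.23, 8.06 and 8.16 in *Mbd2*-/- cells, overlapping the macrophage arrays at 5.87 to 8.41, with a difference of 0.59 (limma adjusted p = 0.0276) that did not pass without WT cDC1 array 26 (0.34, 0.277) or *Mbd2*-/- array 27 (0.57, 0.0534), nor in 7 of 13 other settings (down to 0.13, 0.674, under median scaling). *Tlr12* thus differed from *Tlr11*, which stayed near background in macrophages. *Tlr13*, a receptor for bacterial ribosomal RNA, was lower in cDC1s, at -1.84 and -1.69. Between macrophages and monocytes 12 pathway genes were higher and 21 lower of 56 tested (23.6% and 19.1% of all genes), with *Tlr12* and *Irf7* (-1.19) called.

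**Figure D3:**
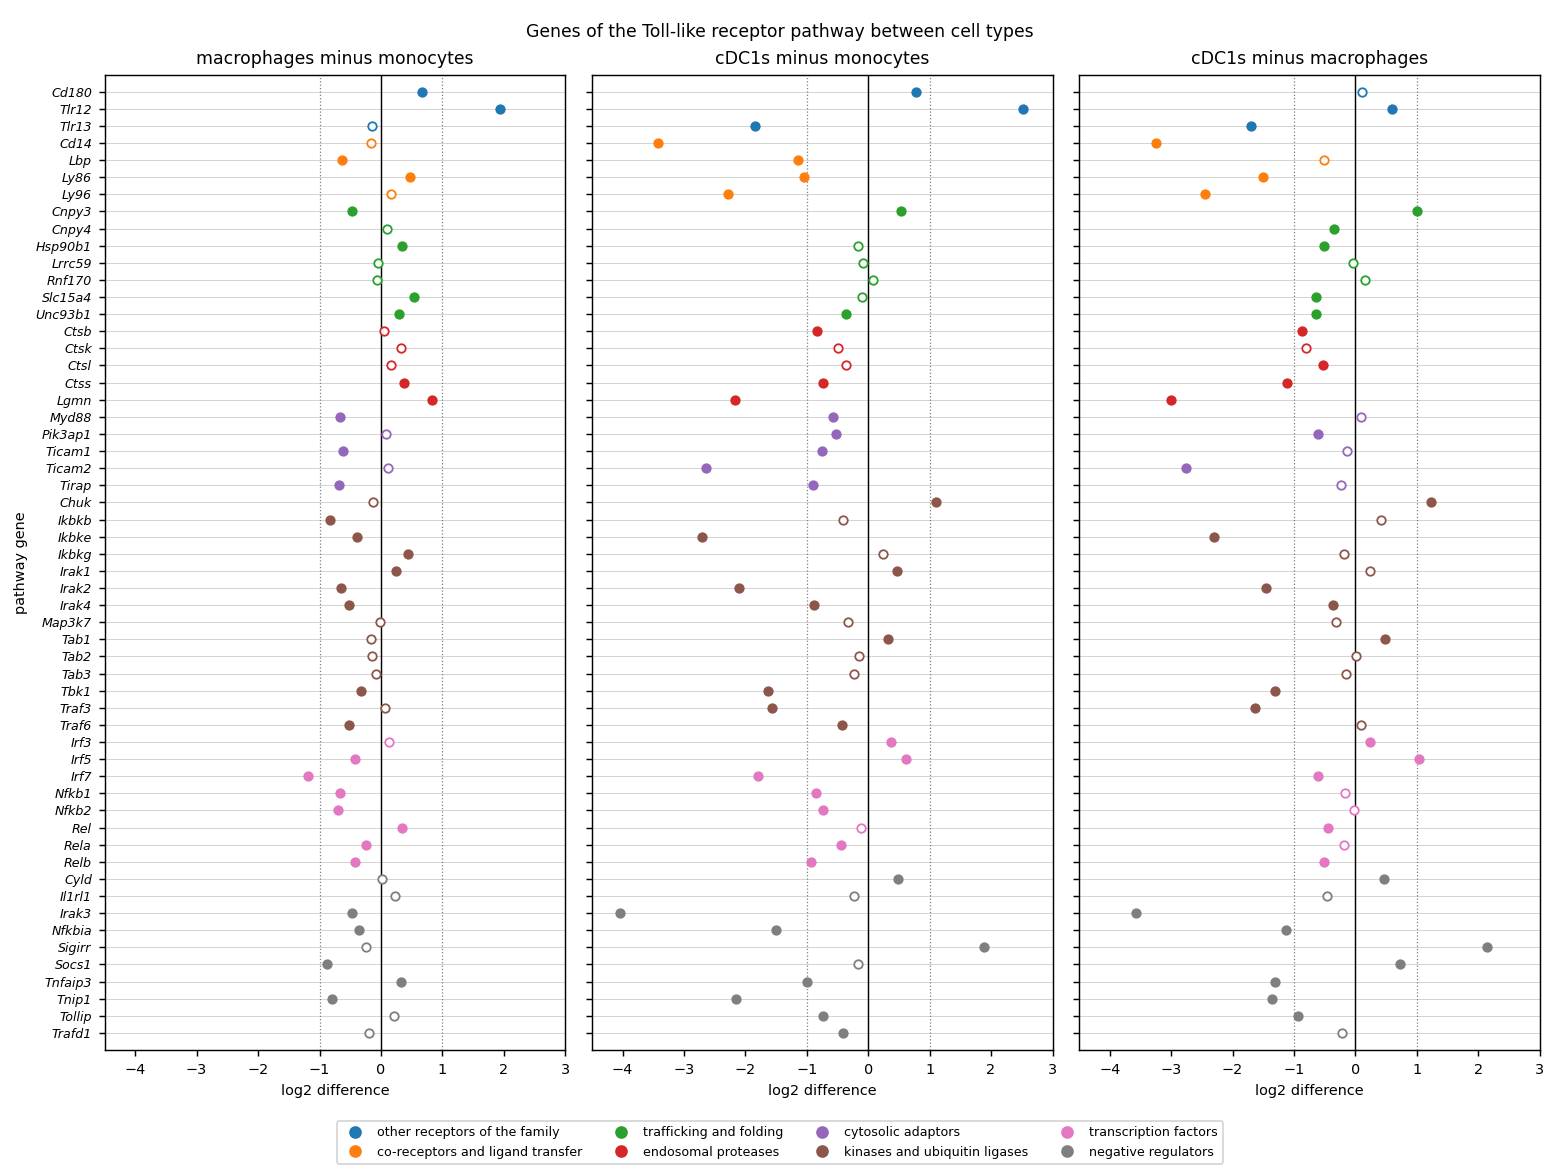
Log2 difference between cell types (horizontal axes, mean of both genotypes) for the pathway genes on the 3 comparisons, coloured by list. Filled points have an adjusted p under 0.05 in the limma fit and dotted lines mark a difference of 1. The lowest points in cDC1s are *Irak3* (-4.04 and -3.57) and *Cd14* (-3.42 and -3.25), and the highest are *Tlr12* against monocytes (2.52) and *Sigirr* against macrophages (2.13).

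Genes whose brightest probe followed each receptor most closely over the 25 arrays were ranked by Pearson correlation among 13606 genes. These arrays share their cell types, which set most of the spread, and nothing is drawn from the values about shared control. *Tlr2* was closest to *Ms4a6d* (0.994) and *Cd14* (0.993), *Tlr4* to *Ctsc* and *Ly96* (both 0.971), and *Tlr6* to *Clec4d* (0.991) and *Klra2* (0.988). *Tlr7* was closest to *Sirpa* (0.993), *Fcgr4* and *Clec4a3* (both 0.992), *Tlr5* to *Arl11*, *Trem2* and *Clec4a1* (all 0.971) and *Tlr1* to *Rin2* (0.983). *Tlr11* was closest to *Cxx1c* (0.978), *Pdia5* and *Clec9a* (both 0.976), the last a marker of cDC1s, and *Tlr3* to *Tcf19* (0.964). For *Tlr8* and *Tlr9* the highest values were 0.890 and 0.770.

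Between *Mbd2*-/- and WT cells no receptor gene was called in any cell type, among 7 tested in monocytes, 9 in macrophages and 7 in cDC1s. Over all genes tested 0.492%, 1.85% and 2.41% were called. At an adjusted p under 0.05 alone, *Tlr5* was lower and *Tlr11* higher in *Mbd2*-/- macrophages, and *Tlr6* and *Tlr7* were higher in *Mbd2*-/- cDC1s. These are 0 of 7, 2 of 9 and 2 of 7 receptor genes, against 2.19%, 6.87% and 8.32% of all genes. By limma 1, 4 and 3 receptor genes had an unadjusted p under 0.05, against 16.4%, 27.7% and 28.7% of all genes.

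**Figure D4:**
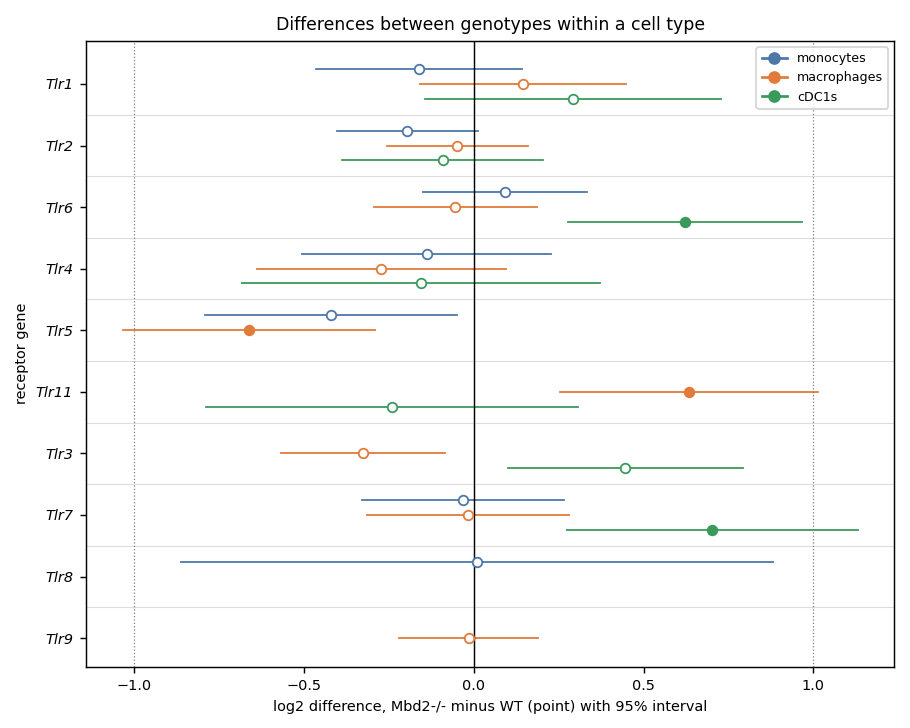
Log2 difference of *Mbd2*-/- minus WT (horizontal axis) for the main probe of each receptor gene in monocytes, macrophages and cDC1s, with 95% intervals from the limma fit. Filled points have an adjusted p under 0.05, dotted lines mark a difference of 1 and a missing point was not tested. *Tlr5* (-0.66) and *Tlr11* (0.63) are filled in macrophages, *Tlr6* (0.62) and *Tlr7* (0.70) in cDC1s, and none in monocytes.

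In macrophages *Tlr5* read 6.93, 7.96, 7.23, 7.32 and 7.32 on the WT arrays and 6.50, 7.15, 6.99, 6.59 and 6.21 on the *Mbd2*-/- arrays. The lowest WT array overlapped the 2 highest *Mbd2*-/- arrays. *Tlr5* was 1.58-fold lower in *Mbd2*-/- macrophages (-0.66, standard error 0.18, 95% interval -1.03 to -0.29, limma adjusted p = 0.0346). Without WT array 12, the highest, the difference was -0.51 (adjusted p = 0.118), and without *Mbd2*-/- array 20, the lowest, -0.54 (0.115), and these are the arrays that stood apart. It also missed the threshold without WT array 14 or *Mbd2*-/- array 16 or 19, at -0.67 to -0.62, and in 5 of 11 other settings, between which the difference ran from -0.67 to -0.42 (adjusted p up to 0.313, under median scaling). In monocytes *Tlr5* read 7.36, 7.50, 7.33, 7.22 and 6.77 in WT and 7.00, 6.89, 6.78, 6.66 and 6.75 in *Mbd2*-/- cells, overlapping through 1 WT array, with a difference of -0.42 (-0.79 to -0.05, adjusted p = 0.281). The difference of the genotype effect between macrophages and monocytes was -0.24 (adjusted p = 0.876).

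*Tlr11* in macrophages read 4.59, 4.29, 4.46, 4.83 and 4.71 on WT arrays, 2 of them detected, and 5.17, 4.79, 5.02, 5.24 and 5.82 on *Mbd2*-/- arrays, all detected. The lowest *Mbd2*-/- array lay below the highest WT array. The level was 1.55-fold higher in *Mbd2*-/- macrophages (0.63, standard error 0.18, 95% interval 0.25 to 1.01, limma adjusted p = 0.0441), which was 0.48 (0.146) without array 20 and 0.56 (0.133) without array 12. It passed in only 2 of the 10 fits that left out 1 array, where WT array 15 or *Mbd2*-/- array 17 was dropped, and in 2 of 10 other settings, between which the difference ran from 0.21 without background correction (0.193) to 0.68 with cyclic loess (0.0738). Those 2 settings include the one without a minimum difference, which repeats the main fit and had to pass. In monocytes *Tlr11* was detected on 0 of 5 WT arrays (4.38, 4.40, 4.52, 4.50 and 4.66) and on 4 of 5 *Mbd2*-/- arrays (4.57, 5.39, 5.07, 5.28 and 5.29). It did not pass the detection filter for a test there. The *Mbd2*-/- monocyte mean was 1.41-fold above the WT arrays set to at least the lowest detected signal. That mean includes an undetected array and has no interval, so it is not a firm bound. The 8 cDC1 markers, genes of the cell type in which *Tlr11* was highest, averaged 6.32 to 6.65 in WT and 6.25 to 6.48 in *Mbd2*-/- macrophages and 5.98 to 6.31 and 6.08 to 6.22 in monocytes. Neutrophil markers averaged 5.58 to 6.37 in WT and 6.20 to 7.20 in *Mbd2*-/- macrophages and 6.55 to 7.36 and 7.21 to 7.77 in monocytes, and their part in these receptor values was not tested.

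The macrophage and monocyte arrays of both genotypes lie in the table in consecutive sixes, and 6 is the number of arrays on a chip of this type, although the table does not name the chip. Within the 2 sixes that hold macrophages of both genotypes *Tlr5* differed by -0.97 and -0.44 and *Tlr11* by 1.08 and 0.22. Within the 2 that hold monocytes *Tlr5* differed by -0.69 and -0.10 and *Tlr11* by 0.86 and 0.43. Each of the 5 cDC1 arrays lies in a different set of 6, so that for cDC1s column position and genotype cannot be told apart. Nor can position and cell type between macrophages and monocytes, since no set of 6 holds both.

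In cDC1s *Tlr6* read 5.17 and 5.76 in WT and 6.15, 6.10 and 6.02 in *Mbd2*-/- cells, and *Tlr7* read 4.72 and 5.06 against 5.58, 5.13 and 6.06. The *Mbd2*-/- arrays lay above both WT arrays for each gene. *Tlr6* was 1.54-fold higher (0.62, standard error 0.17, 95% interval 0.28 to 0.97, limma adjusted p = 0.0280) and *Tlr7* 1.63-fold higher (0.70, standard error 0.21, 0.27 to 1.13, adjusted p = 0.0432). *Tlr3*, at 6.35 and 6.69 against 7.13, 6.84 and 6.92, differed by 0.45 (0.10 to 0.79, adjusted p = 0.104), and *Tlr1* by 0.29 (-0.14 to 0.73, adjusted p = 0.417). The genotypes did not overlap for these 4 of 7 genes, against 37.1% of all genes with 2 and 3 arrays.

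The deposited intensities of the same arrays, which are not scaled between arrays, did not place *Tlr6* and *Tlr7* higher in *Mbd2*-/- cDC1s. *Tlr6* had an intensity of 122 and 132 in WT and 125, 102 and 103 in *Mbd2*-/- cells, and *Tlr7* 105 and 110 against 108, 88.8 and 104. The negative control probes averaged 89.4 and 91.7 on the WT arrays and 84.5, 80.2 and 82.2 on the *Mbd2*-/- arrays, and the whole arrays 265 to 292 against 172 to 228. Over the negative controls of its own array *Tlr7* stood at 1.18 and 1.20 against 1.28, 1.11 and 1.27, and *Tlr6* at 1.37 and 1.44 against 1.48, 1.27 and 1.26, so that the genotypes overlapped for both genes. With the *Mbd2*-/- arrays dimmer as a whole, neither unscaled measure can decide whether these genes were higher. With arrays scaled to 1 median in place of quantile normalization the differences were 0.09 (adjusted p = 0.905) for *Tlr6*, 0.29 (0.624) for *Tlr7* and -0.19 (0.627) for *Tlr3*. Under that scaling all genes shifted by a median of -0.37 in this comparison. Without WT array 23 *Tlr6* differed by 0.33 (adjusted p = 0.391) and *Tlr7* by 0.53 (0.313). *Tlr6* also missed the threshold without *Mbd2*-/- array 28 (0.62, 0.0614) or 30 (0.66, 0.0532), and *Tlr7* without array 27 (0.71, 0.0533) or 30 (0.47, 0.176).

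Markers of cells in which *Tlr6* and *Tlr7* were high were also higher on the *Mbd2*-/- cDC1 arrays. The macrophage markers averaged 6.84 to 6.87 in WT and 7.04 to 7.78 in *Mbd2*-/- cDC1s, with 8 of 8 genes higher in mean and 2 of 8 without overlap. The monocyte markers averaged 6.88 to 7.27 and 7.48 to 7.64, with 5 of 6 genes higher in mean and 1 without overlap. Over all genes tested 37.1% did not overlap between these arrays, so neither count of genes without overlap exceeds that share. Other marker lists separated the genotypes too, with neutrophil markers at 5.70 to 5.91 in WT and 6.13 to 6.70 in *Mbd2*-/- cDC1s, B and plasma cell markers at 5.19 to 5.26 and 5.37 to 5.64, eosinophil markers at 4.41 to 4.62 and 4.71 to 4.89, and, the other way, NK cell markers at 5.79 to 5.94 and 5.40 to 5.55. The cDC1 markers averaged 9.25 to 9.28 in WT and 9.06 to 9.43 in *Mbd2*-/- cells. Their part in the receptor values was not tested. *Tlr2* and *Tlr4*, which were also high in monocytes and macrophages, differed by -0.09 (95% interval -0.39 to 0.20) and -0.15 (-0.68 to 0.37), and *Tlr11* by -0.24 (-0.79 to 0.31, adjusted p = 0.621). The second *Tlr4* probe went the other way, at 0.22 (-0.26 to 0.70, limma adjusted p = 0.607). *Tlr1*, likewise high in both cell types, differed by 0.29 (-0.14 to 0.73).

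**Figure D5:**
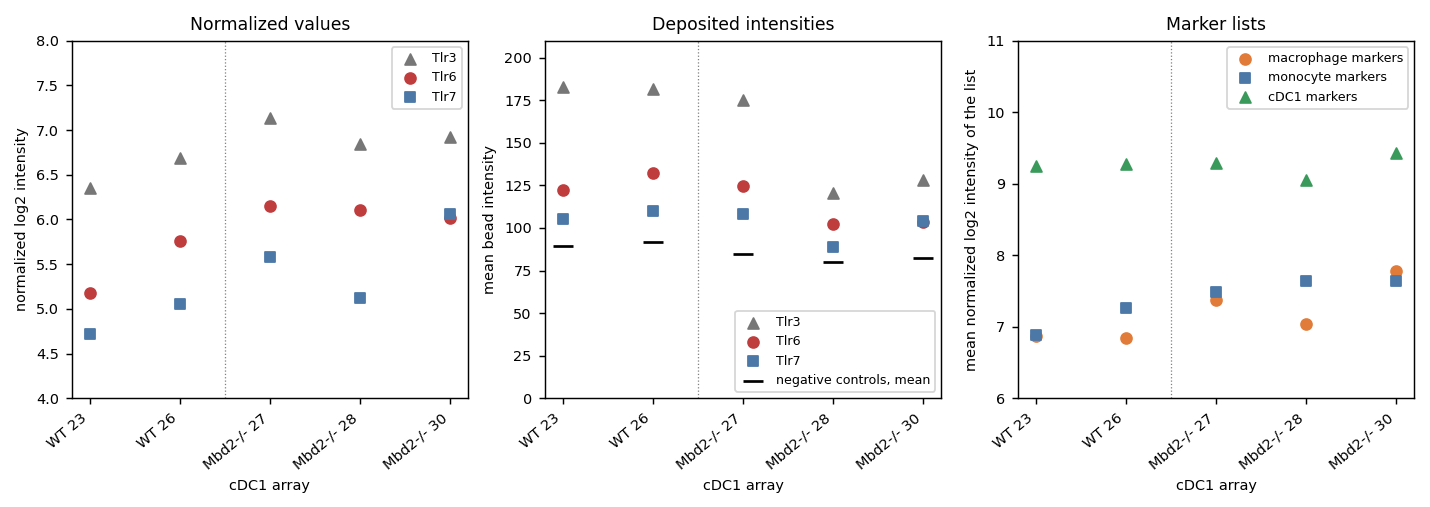
The 5 cDC1 arrays (horizontal axes, WT left of the dotted line), with normalized log2 intensity of *Tlr3*, *Tlr6* and *Tlr7* (left), their deposited intensity beside the mean of the negative control probes (middle), and the mean log2 intensity of 3 marker lists (right). All *Mbd2*-/- arrays are higher than both WT arrays for *Tlr6* and *Tlr7* in the normalized values. This does not hold in the deposited intensities, which are not scaled for the lower brightness of the *Mbd2*-/- arrays. The macrophage markers of the *Mbd2*-/- arrays lie at 7.04 to 7.78 against 6.84 to 6.87.

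The remaining receptors did not pass between genotypes. In monocytes *Tlr2* differed by -0.20 (95% interval -0.40 to 0.01, limma adjusted p = 0.400), *Tlr1* by -0.16 (-0.46 to 0.14), *Tlr4* by -0.14 (-0.51 to 0.23), *Tlr6* by 0.09 (-0.15 to 0.33), *Tlr7* by -0.03 (-0.33 to 0.27) and *Tlr8* by 0.01 (-0.86 to 0.88), and the arrays overlapped for each of the 7 genes tested, where 6.08% of all genes tested did not overlap. *Tlr3* in monocytes read 4.43, 4.45, 4.38, 4.32 and 4.39 in WT, none detected, and 4.60, 4.71, 4.91, 5.06 and 4.60 in *Mbd2*-/- cells, with 3 detected, so that the arrays did not overlap. It did not pass the detection filter for a test. The *Mbd2*-/- mean was 1.11-fold above the WT arrays set to at least the lowest detected signal. That mean includes undetected arrays and has no interval, so it is not a firm bound. In macrophages *Tlr3* went the other way, at 5.04, 5.20, 5.32, 5.16 and 4.98 in WT and 4.85, 5.01, 5.02, 4.74 and 4.45 in *Mbd2*-/- cells, with overlapping arrays and a difference of -0.33 (-0.57 to -0.09, adjusted p = 0.0929). *Tlr1*, *Tlr2*, *Tlr6*, *Tlr7* and *Tlr9* in macrophages differed by 0.15, -0.05, -0.05, -0.02 and -0.02, and *Tlr4* by -0.27 on its main probe (adjusted p = 0.361) and -0.46 on the second (0.0862). The second *Tlr6* probe went the other way from its main probe, at 0.43 (95% interval -0.01 to 0.88, limma adjusted p = 0.226). That probe was not tested between genotypes in cDC1s, where no array detected it. *Tlr8* was detected on 3 of 5 *Mbd2*-/- and 0 of 5 WT macrophage arrays. Its value of 1.55-fold, formed in the same way and no firm bound either, rested on array 20. No macrophage gene of the set separated the genotypes without overlap, as 6.5% of all genes did.

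The genotype effect itself was compared between cell types, with the arrays of the previous comparisons. Between cDC1s and macrophages the effect differed for *Tlr3* by 0.77 (95% interval 0.35 to 1.20, limma adjusted p = 0.0252) and for *Tlr6* by 0.68 (0.25 to 1.10, adjusted p = 0.0401), the only 2 of 7 receptors to pass, where 11.9% of all genes did. None was called at a difference of 1 or more, against 6.85% of all genes. *Tlr7* (0.72, adjusted p = 0.0694) and *Tlr11* (-0.87, adjusted p = 0.0824) did not pass, and 5 of 7 had an unadjusted p under 0.05, against 32% of all genes. Without WT cDC1 array 23 both were lost, at 0.61 (0.201) for *Tlr3* and 0.39 (0.371) for *Tlr6*, and *Tlr6* missed the threshold in 9 of 15 fits that left out 1 array (0.39 to 0.72). Median scaling gave 0.064 (0.956) for *Tlr3* and 0.22 (0.865) for *Tlr6*. Between cDC1s and monocytes 0 of 5 passed by limma (1.14% of all genes, with 0.722% called), with 2 at an unadjusted p under 0.05 (*Tlr6* 0.53 and *Tlr7* 0.73) against 22% of all genes, and between macrophages and monocytes 0 of 6 passed (0.0171% of all genes), with 0 at an unadjusted p under 0.05 against 8.88%.

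Among the 58 pathway genes 0 of 55 tested passed between genotypes in monocytes by limma at an adjusted p under 0.05. In macrophages 2 of 56 passed and in cDC1s 1 of 53. Over all genes tested 2.19%, 6.87% and 8.32% passed, so none of these counts exceeds its share. Of all genes in macrophages 1.85% were called. In macrophages *Tlr12* rose from 7.11, 5.87, 7.03, 6.62 and 6.93 on WT arrays to 7.98, 7.65, 7.04, 7.74 and 8.41 on *Mbd2*-/- arrays, overlapping through 1 array, by 1.05 (limma adjusted p = 0.0188), the only call in the lists. Without array 12 it was 0.84 (0.0649) and without array 20 0.89 (0.0696). *Tlr12* in monocytes, at 4.66 to 5.10 in WT and 5.41 to 6.41 in *Mbd2*-/- cells without overlap, differed by 0.92 (adjusted p = 0.0601). *Tlr13* was higher in *Mbd2*-/- macrophages by 0.60 (0.0450), and missed the threshold in 6 of 10 fits that left out 1 array, with 0.39 (0.121) without array 12. In cDC1s *Rel*, a subunit of NF-κB that is named here after its value was seen, was lower, at -0.63 (0.0124). *Cd14*, *Ly96*, *Myd88*, *Ticam1*, *Unc93b1*, *Irak3* and *Tnfaip3* did not pass between genotypes in any cell type.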

How the data were processed

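Illumina MouseWG-6 arrays of 25 samples of sorted colon cells (12 WT and 13 *Mbd2*-/-) were grouped by the labels. The authors deposited a table of raw intensities per probe, not background-corrected or normalized, with a detection p-value for each, set against 936 negative control probes, and bead counts and errors. The submitters' processing notes name lumi and limma for their own analysis. From the deposited intensities the background was corrected with normexp (offset 16), the 25 arrays were quantile normalized together, and values were taken to log2. Probes were tested where they were detected (p-value under 0.05) on a number of arrays no lower than the size of the smaller group. The test was limma (version 3.58.1, R 4.3.3, with the data.table package in version 1.17.8), with 1 fit over 6 groups, empirical Bayes variances and Benjamini-Hochberg adjustment over all probes tested in a comparison. Cell type comparisons average both genotypes. A gene passes if any of its probes does, and shares of all genes are counted in the same way.

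The receptor genes, the pathway and marker lists and the tests were chosen with earlier results of these data known. Genes named are the 10 receptors and, of the pathway lists, those called in a comparison and a fixed set of receptor partners and adaptors, and the most similar genes are the top-ranked by correlation. Alternatives were other background, normalization, filter and threshold settings, array weights, position in the table as a block, each genotype alone and each array left out. The setting without a minimum difference repeats the main fit. It can change counts of calls but not the result of a single gene, although it is counted among the other settings of each gene. The limma test of each genotype and cell type comparison was run on simulated normalized values with known changes. Background correction and normalization were not covered by it. The genotype comparison in cDC1s was exempt from the requirement that large changes be recovered. CD4+ T cell arrays (1 per genotype) entered no comparison, and 3 signal columns that match no labelled sample were not used. Of 36692 probes with an accession, 27655 matched a current RefSeq gene. Each receptor probe was read on 23 to 73 beads (median 43), with a bead standard error of 2.83% at the median and 6.80% at most. These are shares of the deposited intensity, which includes background. For dim probes the error is a larger share of the signal above background, and which source of error limits precision was not tested.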

Additional observations from a re-analysis of the deposited data

Results flagged for a closer look

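In 4 of 40 gene-by-group sets of 5 arrays, 1 array lay far from the others by Dixon's test, where chance gives about 1 in 20. *Tlr6* read 9.88 on WT monocyte array 4, next to 9.60, and *Tlr7* read 9.72 on *Mbd2*-/- monocyte array 9, next to 9.47. *Tlr8* read 4.21 on WT macrophage array 11, next to 4.48, where it was not detected. *Tlr8* read 7.95 on *Mbd2*-/- macrophage array 20, next to 4.74, with an intensity of 228 on 47 beads, on an array that also stood apart from its group.

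The genotype effect differed between cDC1s and macrophages for *Tlr3* (0.77) and *Tlr6* (0.68) in limma's test of the difference, as described above.

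The CD4+ T cells, with 1 array per genotype and no replicate, gave detected signal for 5 receptors on both arrays, on the scale of deposited intensities. *Tlr1* had 200.1 in WT and 164 in *Mbd2*-/- cells, *Tlr2* 133 and 127, and *Tlr6* 156 and 136. *Tlr4* had 97.9 and 85.7, and *Tlr7* 102 and 90.2.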

How the results depend on the processing

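Over the receptor and named pathway results, leaving out 1 array gave 1413 values on the same side of zero and of the threshold, 41 that no longer passed, 5 that newly passed and 27 of the other sign, and the other settings gave 1221, 61, 3 and 12. The 1221 include the setting without a minimum difference, which repeats the main fit for each gene and could not differ. The calls in cDC1s were 7 to 8 of the receptor genes against monocytes and 7 to 9 against macrophages under all settings, with 7 without background correction, where *Tlr3* fell under the minimum difference (0.92 and 0.79), and all 8 genes kept their direction in each genotype alone. Without a minimum difference, 2 receptor genes passed between genotypes in macrophages, 2 in cDC1s, 6 between macrophages and monocytes and 2 for the difference of the genotype effect between cDC1s and macrophages. With the minimum difference kept, the count for that difference of effects, 0 as reported, was 1 under median scaling and 0 to 1 with 1 array left out (1 without *Mbd2*-/- cDC1 array 27). Of 40 pathway calls, 7 fell under the minimum difference with some array left out and 9 in some other setting, counted above by their adjusted p alone. Between macrophages and monocytes 1 was called on *Mbd2*-/- arrays alone. Median scaling shifted all probes by -0.26 in the monocyte genotype comparison, -0.37 in that of cDC1s and -0.28 in both cDC1 comparisons, and gave negative genotype values for *Tlr6* (-0.24) and *Tlr8* (-0.025) in monocytes and for *Tlr1* (-0.11) and *Tlr3* (-0.19) in cDC1s. The difference of *Tlr5* between macrophages and monocytes, near 0, was 0.064 under median scaling, 0.0072 without background correction, 0.0032 at an offset of 50 and 0.11 on WT arrays alone. *Tlr8* in monocytes was -0.0068 without background correction. Cyclic loess gave 0.014 for *Tlr2* and 0.0044 for *Tlr7* in macrophages and 0.24 for *Tlr4* in cDC1s. With 1 array left out the sign changed only for small values, namely in monocytes *Tlr7* (-0.091 to 0.021) and *Tlr8* (-0.080 to 0.085), in macrophages *Tlr2* (-0.096 to 0.0036), *Tlr6* (-0.12 to 0.023), *Tlr7* (-0.086 to 0.054) and *Tlr9* (-0.065 to 0.026), in cDC1s *Tlr2* (-0.17 to 0.023) and *Tlr4* (-0.45 to 0.022), and between macrophages and monocytes *Tlr5* (-0.082 to 0.054). Without background correction *Tlr6* and *Tlr7* in cDC1s gave 0.26 (adjusted p = 0.190) and 0.25 (0.284), and with cDC1 arrays normalized alone 0.55 (0.375) and 0.59 (0.426). Where the cause of such a change is not given by the setting itself, the cause was not tested. No paired analysis was made. The genotypes share no replicate numbers, and the sample titles do not say which cell types were sorted from the same mice. The main fit therefore treats all arrays as independent, also between cell types. Low signal limits *Tlr8*, *Tlr9* and, outside cDC1s, *Tlr11* and *Tlr3*.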
